A study of Mus musculus with 4 samples.

Results

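The comparison set the liver transcriptome of 15 month-old mice against that of 9 month-old mice, 2 of the 4 libraries of the series, in a search for genes whose expression is steady with age. All groups were male C57BL/6Rj mice (strain given as C57BL6 in the labels), and the other 2 libraries came from mice of 3 and 21 months. Each library was a single pool of liver RNA from 24 mice, with 4 mice from each of 6 times of the day. Pooling over the day averages daily rhythms and leaves no information on single mice, so that every interval given here covers counting error only, no test between ages was possible and no p-value is given. Reads of 35 bp were taken from the capped 5'-ends of RNA, and the values are whole reads per gene symbol. Of 33924 gene symbols, 4900 had at least 20 counts in both pools together and were compared. Their share of the counts on genes was 96.4% in the younger and 95.9% in the older pool. A further 8580 symbols had between 1 and 19 counts and 20444 had none in either pool.

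The liver supplies the blood with albumin, clotting factors and lipoproteins, disposes of ammonia and foreign compounds, and makes acute phase proteins upon inflammation. Metallothioneins are small cysteine-rich proteins that bind zinc and copper, and their genes respond within hours to metals, glucocorticoids and cytokines through metal response elements and other sites in the promoter. Small nucleolar RNAs guide the modification and cleavage of ribosomal RNA in the nucleolus. U3, U8 and U13 among them are transcribed from promoters of their own and carry a cap, whereas most others are cut out of introns.

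The 9 month library was the deepest of the 4, with a total of 958586 counts on genes, and the 15 month library the shallowest, with 525772. After scaling by TMM (trimmed mean of M values), 1 count at 15 months corresponded to 1.72 counts at 9 months, and a ratio always means 15 over 9 months on this scale. Levels are given in CPM, the count scaled to a fixed library size with TMM, and 3 counts, the limit that a count of 0 allows, correspond to between 3.13 and 5.71 unscaled CPM in the 4 libraries. Between 6.67% and 8.42% of the alignment records fell on genes, and between 72.2% and 76.7% were set aside because their alignment was not unique. The hepatocyte markers were present in all pools, with Alb (albumin) taking between 5.46% and 6.52% of the counts, whereas Xist and the 37 mitochondrially encoded genes had 0 counts in all 4 libraries.

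A gene was called when its ratio was at least 2 or at most 0.5 and its 95% counting interval (exact Clopper-Pearson) did not include 1. This held for 321 genes in the upward direction (6.55% of those compared) and for 288 in the downward direction (5.88%), together 12.4%. The median ratio over all 4900 genes was 1.004, and 90% of the genes lay between 0.401 and 2.40. The interval included 1 for 3739 genes (76.3%). Calls were concentrated among genes with few counts. They made up 17.4% of the genes with 20 to 29 counts and 1.57% of the 318 genes with 500 or more counts, whose median ratio was 0.911. A stricter call, in which the whole interval lay past 2-fold, was met by 32 genes upward (0.653%) and 20 downward (0.408%). Near the limit, Cish was just inside with a ratio of 2.003 and Hes7 just outside with 1.996, while Slc22a18 was just inside with 0.498 and Ces2c just outside with 0.5002.

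**Figure D1:**
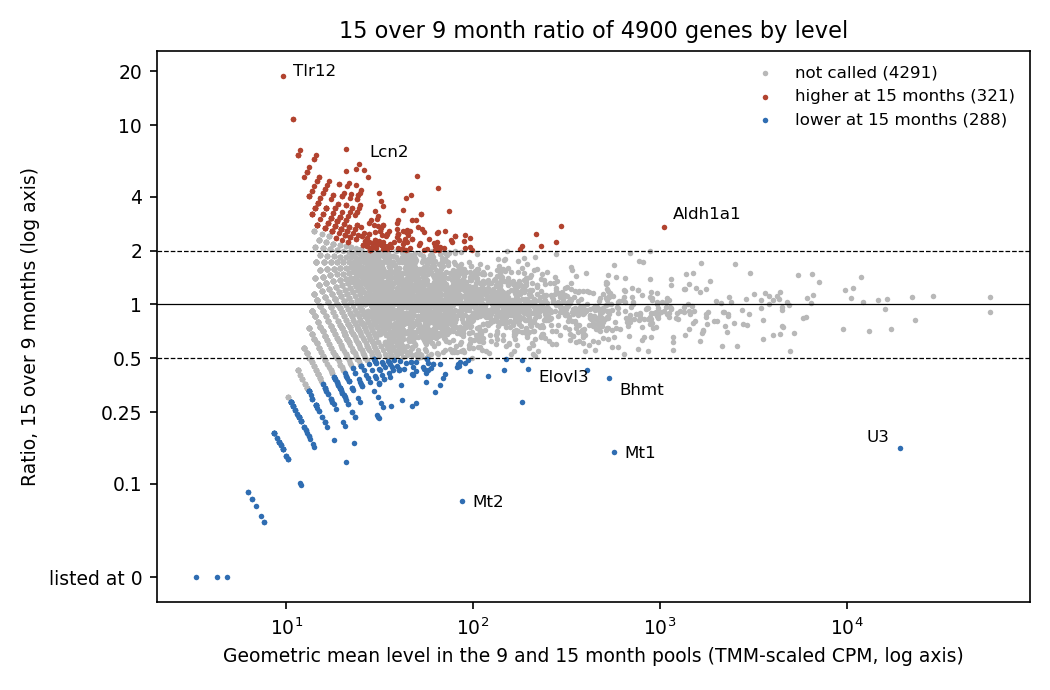
Ratio of 15 over 9 months (log axis) against the geometric mean level of both pools in TMM-scaled CPM (log axis) for 4900 genes, 1 point per gene; 3 genes listed at 0 at 15 months are drawn at the bottom. The calls, 321 upward and 288 downward, crowd at the left, whereas Mt1, Mt2, U3, Bhmt and Aldh1a1 stand apart from genes of similar level.

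The metallothionein genes Mt1 and Mt2 were lower at 15 months, by 6.65-fold and 12.5-fold. They lie next to each other on the plus strand of chromosome 8 (NCBIM37, also named mm9; Mt1 from 96702989 to 96704225 and Mt2 from 96696518 to 96697467), and both are annotated as protein-coding. A stretch of 30 bases in front of each coding sequence is shown because both genes carry the same arrangement there, a metal response element (in capitals) just before the TATA box that ends the stretch.
Mt1, chr8:96703086-96703115, plus strand: tTGCGCCCggactcgtccaacgactataaa
Mt2, chr8:96696629-96696658, plus strand: TGCGCTCgacccaatactctccgctataaa
The last 6 bases are TATAAA, which begins 101 bases before the start codon of Mt1 and 95 bases before that of Mt2, and in the annotation both stretches fall within the transcribed 5' part of the gene. In the 200 bases before TATAAA, the letters TGCACNC or TGCGCNC occurred 5 times in each gene, counting both strands. Of the 200-base stretches before the annotated start of 22380 protein-coding genes, 20.4% held at least 1 such match and 0.0447% held at least 5. These stretches are anchored on the start rather than on TATAAA, and a match describes the letters only.

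Mt2 had 5, 279, 13 and 48 counts at 3, 9, 15 and 21 months, and Mt1 had 135, 1335, 117 and 221 counts. On the scaled level Mt1 amounted to 151 CPM at 3 months, 1464 CPM at 9 months, 222 CPM at 15 months and 317 CPM at 21 months. The 9 month pool was thus the highest of the 4 for both genes, and the 15 month pool lay between the 3 and the 21 month pools. The ratio was 0.0800 for Mt2 (95% interval from 0.0421 to 0.139) and 0.150 for Mt1 (from 0.123 to 0.182). None of the 35-base windows in the first 100 bases of either transcript had a second exact match in the genome. Of the other 5 genes for zinc handling that were compared, none was called. The zinc importer Slc39a14 had 106 and 34 counts at 9 and 15 months (ratio 0.551, from 0.363 to 0.817), and Mtf1, the transcription factor that binds metal response elements, had 14 counts in each (ratio 1.72, from 0.759 to 3.89). These 2 genes were picked after their values were known. Over a list of 22 genes responding to glucocorticoids or fasting, which holds both metallothioneins, 1 was called upward (4.55%, against 6.55% of all genes) and 3 downward (13.6%, against 5.88%). The median ratio was 1.03 (0.954 when TMM was computed over unfiltered genes). The third gene called downward was the transcription factor Foxo3 with 43 and 11 counts (ratio 0.439, from 0.204 to 0.866).

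U3, the small nucleolar RNA that is required for the first cleavages of the ribosomal RNA precursor, was lower at 15 months. Its share of the library was 4.58% at 9 months (exact 95% interval from 4.54% to 4.63%) and 0.770% at 15 months (from 0.746% to 0.794%). It had 12112, 43933, 4048 and 11891 counts at 3, 9, 15 and 21 months, or 13549, 48172, 7667 and 17052 CPM. The 9 month pool was the highest and the 15 month pool the lowest of the 4, and the ratio was 0.158 (from 0.153 to 0.163). The symbol covers 47 annotated entries of which 12 hold both the letters TGATG of the C box and CTGA of the D box, the short elements that bind the core proteins. Of all 1552 annotated entries for small nucleolar RNAs, 30.6% hold both. Which entries gave the counts cannot be told from values summed by symbol, and 19.0% of the 35-base windows in the first 100 bases of these entries matched further places exactly. Reads from such windows cannot be aligned uniquely, so that the count of U3 is uncertain. Below is the sequence of 4 identical copies on chromosome 11, whose reads cannot be aligned uniquely. Their first 35 bases also recur in entries on other chromosomes. The sequence is shown with 2 further box C/D RNAs that were called, with TGATG and CTGA in capitals.
U3, 214 bases, chr11:87256739-87256952, plus strand: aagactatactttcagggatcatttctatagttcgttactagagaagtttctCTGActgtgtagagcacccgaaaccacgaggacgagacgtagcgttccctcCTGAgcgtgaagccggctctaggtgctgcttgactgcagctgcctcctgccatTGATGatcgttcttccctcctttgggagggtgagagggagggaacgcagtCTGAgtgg
Snord118 (U8), 135 bases, chr11:68886929-68887063, plus strand: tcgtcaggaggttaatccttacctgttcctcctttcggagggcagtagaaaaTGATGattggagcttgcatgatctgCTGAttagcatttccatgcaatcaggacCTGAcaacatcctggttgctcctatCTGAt
SNORD16, 99 bases, chr9:64024468-64024566, plus strand: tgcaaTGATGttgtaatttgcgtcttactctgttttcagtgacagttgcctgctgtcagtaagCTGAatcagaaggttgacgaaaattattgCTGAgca

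The other small nucleolar RNAs did not follow U3. Of 72 compared in a list by symbol that leaves U3 out, 13 were called upward (18.1%, against 6.55% of all genes) and 2 downward (2.78%, against 5.88%), and their median ratio was 1.39 against 1.004 over all genes. Snord118, which encodes U8, an RNA needed for the maturation of the large ribosomal subunit RNAs, had 72, 37, 72 and 47 counts at 3, 9, 15 and 21 months. The 9 month pool was the lowest, and the ratio was 3.34 (from 2.22 to 5.11). SNORA43, an H/ACA RNA with 2 annotated entries, had 8, 20, 61 and 32 counts (ratio 5.24, from 3.12 to 9.16), and SNORD20 had 8, 7, 20 and 9 counts (ratio 4.91, from 1.99 to 13.7). SNORD16, which lies within the gene of the ribosomal protein Rpl4, had 157, 82, 13 and 99 counts and was lowest at 15 months (ratio 0.272, from 0.139 to 0.492). Rpl4 itself had 49, 35, 41 and 34 counts and a ratio of 2.01 (from 1.25 to 3.25), a call that was lost with DESeq2 size factors and with TMM over unfiltered genes. The abundant Snord13, encoding the capped U13, had 50667 and 32468 counts at 9 and 15 months and a ratio of 1.10 (from 1.08 to 1.12), and SNORD58 had a ratio of 1.02 (from 0.980 to 1.07). Thus of the 3 capped RNAs U3 was lower, U8 was higher and U13 was within 2-fold. Among 9 genes of 5S ribosomal RNA, n-R5s209 was called downward with 52 and 4 counts (ratio 0.132, from 0.0347 to 0.359), and the median was 1.10.

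**Figure D2:**
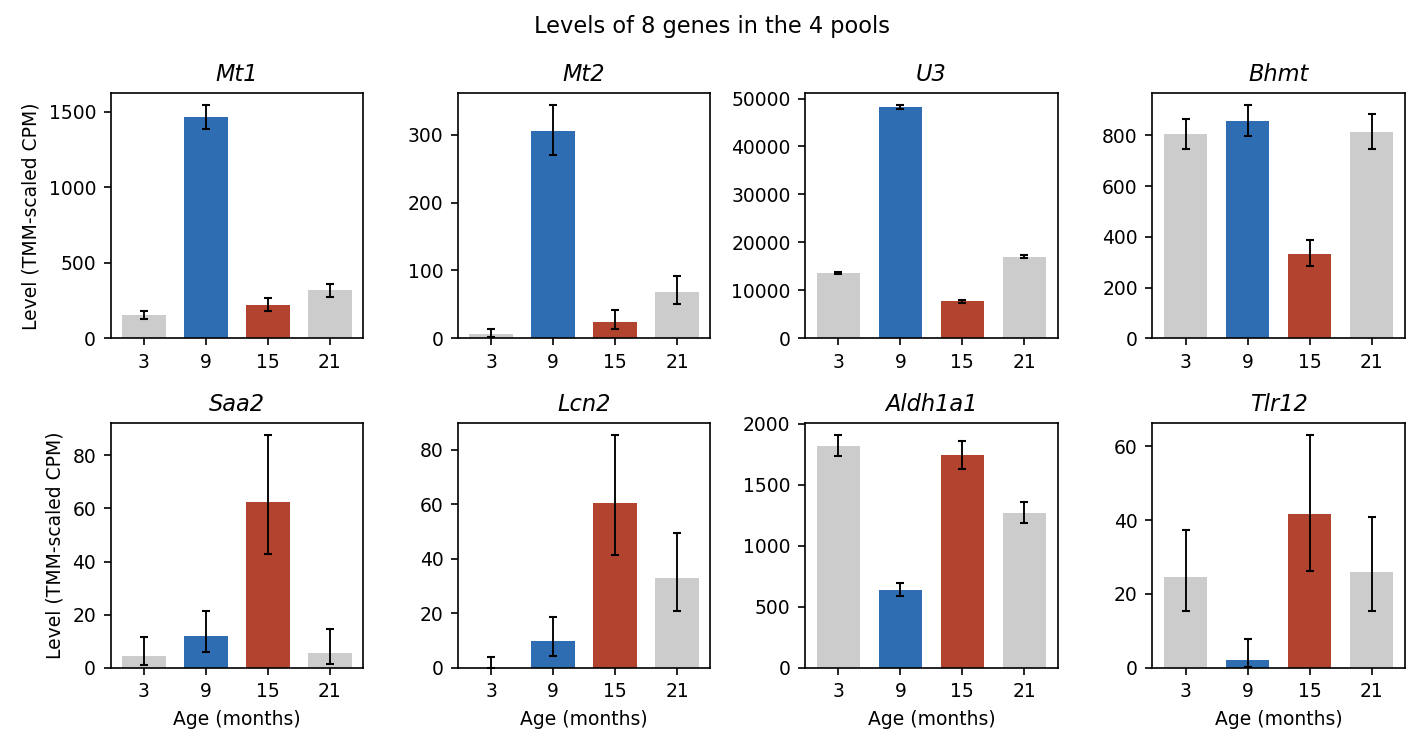
Levels of 8 genes in TMM-scaled CPM in the pools of 3, 9, 15 and 21 months, 1 bar per pool, with exact 95% Poisson intervals that cover counting error only; 9 months is drawn in blue and 15 months in red. Mt1, Mt2 and U3 were highest at 9 months, Bhmt was lowest at 15 months, Saa2 and Lcn2 were highest at 15 months, and Aldh1a1 and Tlr12 were lowest at 9 months.

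Of 25 acute phase genes compared, 5 were called upward (against 6.55% of all genes) and 1 downward (against 5.88%), with a median ratio of 1.07 (0.999 with TMM over unfiltered genes). Saa1 and Saa2 encode serum amyloid A, a lipoprotein component made by hepatocytes under inflammatory cytokines. Saa1 had 11, 11, 28 and 17 counts at 3, 9, 15 and 21 months, and Saa2 had 4, 11, 33 and 4. Both were highest at 15 months, with ratios of 4.37 (from 2.11 to 9.73) and 5.15 (from 2.54 to 11.3). Lcn2, encoding lipocalin 2, which binds bacterial siderophores, had 0, 9, 32 and 23 counts and a ratio of 6.10 (from 2.85 to 14.5). The lipopolysaccharide-binding protein gene Lbp had 109, 54, 71 and 87 counts and was lowest at 9 months (ratio 2.26, from 1.56 to 3.28). The remaining calls of the list, named after their values were seen, were Orm2 with 46 and 61 counts (ratio 2.28, from 1.53 to 3.41) and, downward, the interleukin 1 receptor gene Il1r1 with 37 and 8 counts (ratio 0.371, from 0.149 to 0.810). The fibrinogen genes Fga and Fgb, the most abundant of the list, had ratios of 1.04 (from 0.987 to 1.09) and 0.733 (from 0.707 to 0.759). The iron hormone gene Hamp had a ratio of 0.843 (from 0.763 to 0.931). Abundant members with an interval above 1, named after their values were seen, were the haptoglobin gene Hp (2256 and 1967 counts, ratio 1.497, from 1.41 to 1.59), Itih4 (1028 and 881 counts, ratio 1.47, from 1.34 to 1.61) and the ceruloplasmin gene Cp (917 and 690 counts, ratio 1.29, from 1.17 to 1.43). The abundant members thus lay on both sides of 1 and within 2-fold. Neutrophils also contain Lcn2. Of 8 neutrophil markers, 6 had 0 counts in both pools (among them Ly6g, Mpo and Elane), and the sum over the list was 1 count at 9 months and 7 counts at 15 months. The part of such cells in the higher Lcn2 was not tested. In a pool of tissue, fewer or more cells of a kind and less or more RNA per cell cannot be told apart.

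Saa1 and Saa2 are neighbours in opposite orientation on chromosome 7, and the 200 bases before their annotated starts are shown because the genes moved together and are nearly identical there. In an alignment, 195 positions were the same, 4 differed and 2 were gaps, and bases that are not shared are given in capitals.
Saa1, chr7:53998351-53998550, minus strand: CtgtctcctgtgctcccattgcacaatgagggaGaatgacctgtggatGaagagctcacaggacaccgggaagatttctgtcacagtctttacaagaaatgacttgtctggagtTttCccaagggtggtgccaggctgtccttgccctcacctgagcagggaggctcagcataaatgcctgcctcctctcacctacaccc
Saa2, chr7:54007003-54007202, plus strand: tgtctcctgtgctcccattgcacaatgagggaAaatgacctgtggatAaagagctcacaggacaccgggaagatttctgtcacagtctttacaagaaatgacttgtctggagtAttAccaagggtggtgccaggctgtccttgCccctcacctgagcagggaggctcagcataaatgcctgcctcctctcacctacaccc
The likeness extends into the transcripts. Of the 35-base windows in the first 100 bases, 56.1% for Saa1 and 57.6% for Saa2 matched a further place in the genome exactly. Reads from such windows cannot be aligned uniquely, so that the separate values of both genes are uncertain.

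The chemokine gene Cxcl9, which is induced by interferon gamma and attracts T cells, had 10, 33, 0 and 7 counts at 3, 9, 15 and 21 months. It was listed at 0 at 15 months only. Taking 3 counts per library as the limit of a 0, it would be 6.41-fold lower there, and the upper limit of the 95% interval of its ratio was 0.203. Of 14 interferon-stimulated genes compared, Irf7, a transcription factor of the interferon response, was called downward with 30 and 5 counts (ratio 0.286, from 0.0867 to 0.745) and Ifitm1 upward with 16 and 20 counts (ratio 2.15, from 1.06 to 4.43, a call lost with TMM over unfiltered genes), and the median was 0.841. These are 7.14% in each direction, against 6.55% upward and 5.88% downward of all genes. Of 14 antigen presentation genes, 2 were called downward and none upward, with a median of 0.856. Both calls are overlapping class II genes, H2-Aa with 114, 173, 40 and 143 counts (ratio 0.397, from 0.274 to 0.563) and H2-Ab1 with 19, 41, 5 and 11 counts (ratio 0.209, from 0.0646 to 0.529), which encode the chains of one molecule. Both were lowest at 15 months. They overlap on opposite strands, so that without knowledge of the strand setting their reads cannot be fully told apart. Of the 14 genes, 11 had a ratio below 1 and 3 above. H2-Eb1 (66 and 20 counts, ratio 0.520, from 0.299 to 0.869) and Cd74 (151 and 47 counts, ratio 0.534, from 0.377 to 0.746), also of class II presentation, were not called. These 2 were named after their values were seen. The abundant class I partner B2m had a ratio of 0.836 (from 0.799 to 0.874). Of 9 T and NK cell markers none reached 20 counts, Trac had 0 counts in both pools, and the list summed to 12 counts at 9 months and 7 at 15 months.

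Most genes of amino acid and one-carbon metabolism had a ratio below 1. Of 42 genes compared, 33 had a ratio below 1, and the median was 0.780 against 1.004 over all genes. Other medians also lay below 1, with 0.911 for genes with 500 or more counts and 0.906 for hepatocyte markers. Of the 42, 4 were called downward (9.52%, against 5.88% of all genes) and none upward. The sum over the list fell from 21256 to 9044 counts, a ratio of 0.731 (from 0.713 to 0.749). Bhmt, whose enzyme remethylates homocysteine with betaine, had 719, 782, 176 and 567 counts at 3, 9, 15 and 21 months, or 804, 857, 333 and 813 CPM. The 15 month pool was the lowest and the other 3 lay close together, and the ratio was 0.386 (from 0.326 to 0.456). Its homologue Bhmt2 had 101, 84, 18 and 61 counts (ratio 0.368, from 0.208 to 0.617). Ahcy, encoding the enzyme that splits S-adenosylhomocysteine, had 70, 101, 21 and 61 counts (ratio 0.357, from 0.212 to 0.575). Agxt, the peroxisomal glyoxylate aminotransferase, had 61 and 17 counts at 9 and 15 months (ratio 0.478, from 0.262 to 0.830) and was not called when library totals were used. For Ahcy and Bhmt, 64.7% and 48.5% of the windows had further exact matches. The methionine adenosyltransferase gene Mat1a had a ratio of 0.700 (from 0.650 to 0.754) and was not called.

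Of 15 genes of the urea cycle and ammonia metabolism none was called, 6 had a ratio above 1 and 9 below, and the median was 0.904. The summed counts gave a ratio of 0.721 (from 0.697 to 0.747), led by the most abundant members Cps1 and Ass1. Cps1, the first enzyme of the cycle, had 2790, 4021, 1504 and 2519 counts (ratio 0.642, from 0.605 to 0.682), and Ass1 had 2376, 3069, 1047 and 2154 counts (ratio 0.586, from 0.546 to 0.629). For both genes the 9 month pool was the highest and the 15 month pool the lowest. Of 38 phase II conjugation enzymes, 31 had a ratio below 1, and 2 were called downward (5.26%, against 5.88% of all genes). These were the glucuronosyltransferase gene Ugt3a1 with 40 and 7 counts (ratio 0.300, from 0.114 to 0.678) and the glutathione transferase gene Gstt2 with 56 and 14 counts (ratio 0.429, from 0.221 to 0.781). The median was 0.819 and the summed ratio 0.713 (from 0.695 to 0.731), to which the abundant Gstp1 contributed with a ratio of 0.549 (from 0.522 to 0.578). Of 33 cytochromes P450, Cyp2j6 (63 and 10 counts, ratio 0.273, from 0.125 to 0.535) and Cyp4a12b (65 and 17 counts, ratio 0.449, from 0.247 to 0.775) were called downward (6.06%, against 5.88% of all genes), and the median was 0.907. All windows of Cyp4a12b had a further exact match, so that its count is uncertain.

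In cholesterol synthesis 5 of 25 genes were called downward (against 5.88% of all genes) and none upward, and the median ratio was 0.787. Insig2, which retains the sterol sensor in the endoplasmic reticulum, had 147, 204, 51 and 98 counts at 3, 9, 15 and 21 months (ratio 0.429, from 0.309 to 0.586). Fdft1, the squalene synthase gene, had 103, 73, 19 and 69 counts (ratio 0.447, from 0.255 to 0.748), and Sqle, the squalene epoxidase gene, had 49, 39, 8 and 36 counts (ratio 0.352, from 0.142 to 0.765). Both were lowest at 15 months. Idi1 with 20 and 3 counts at 9 and 15 months (ratio 0.258, from 0.0490 to 0.868) and Mvk with 24 and 5 counts (ratio 0.358, from 0.107 to 0.956; named after its value was seen) completed the list of calls.

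Among fatty acid genes 6 calls were made in 2 lists, against 6.55% upward and 5.88% downward of all genes. Of 26 genes of fatty acid and triglyceride synthesis, Elovl3 and Thrsp were called downward and none upward, with a median of 0.9498 (1.01 with library totals). Elovl3, an elongase for very long fatty acids, had 295, 273, 69 and 125 counts (ratio 0.434, from 0.328 to 0.567). Thrsp, a regulator of lipogenesis, had 216, 239, 68 and 180 counts (ratio 0.489, from 0.368 to 0.642, a call lost with library totals). Scd1, the desaturase and most abundant gene of the list, had a ratio of 1.06 (from 1.03 to 1.09), and Fasn had a ratio of 0.667 (from 0.581 to 0.763). Of 35 genes of fatty acid oxidation and ketogenesis, Etfa (7 and 18 counts, ratio 4.42), Eci1 (9 and 19 counts, ratio 3.62) and Acads (32 and 41 counts, ratio 2.20) were called upward and Decr1 (101 and 24 counts, ratio 0.408) downward. Of 25 bile acid genes, Abcb4, the phospholipid exporter of the canaliculus, was called upward with 36 and 43 counts (ratio 2.05, from 1.29 to 3.29, lost with TMM over unfiltered genes). Prkaa2, which encodes a catalytic subunit of AMP-activated protein kinase, was among the leading genes upward. It had 83, 28, 73 and 29 counts and a ratio of 4.48 (from 2.86 to 7.19), so that it was high at 3 and 15 months and low at 9 and 21 months.

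Aldh1a1, which encodes a retinaldehyde dehydrogenase, was the best supported upward gene in terms of counts. It had 1627, 583, 919 and 886 counts, or 1820, 639, 1741 and 1271 CPM, at 3, 9, 15 and 21 months. The 9 month pool was the lowest of the 4 and the 15 month pool close to that of 3 months, and the ratio was 2.71 (from 2.44 to 3.01). Of 23 alcohol and aldehyde dehydrogenases it was the only one called upward. Aldh1b1 was called downward with 33 and 5 counts (ratio 0.260, from 0.0793 to 0.671), and Adh1 had a ratio of 0.952 (from 0.898 to 1.01). Of 27 sex-biased or growth hormone-dependent genes, 2 were called upward (7.41%, against 6.55% of all genes) and 3 downward (11.1%, against 5.88%). Their median was 0.962 (1.02 with library totals). Hsd3b5, expressed in male liver, was upward with 47 and 66 counts (ratio 2.41, from 1.63 to 3.58). Selenbp2, also male-biased, was downward with 279, 564, 141 and 199 counts at 3, 9, 15 and 21 months (ratio 0.429, from 0.354 to 0.517).

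The leading genes upward besides those described were mostly genes with few counts. The 15 of them had a median of 39 counts over both pools, and 11 had under 50. Tlr12, a toll-like receptor, had 22, 2, 22 and 18 counts at 3, 9, 15 and 21 months (ratio 18.9, from 4.64 to 166), and Sertad2, a transcriptional regulator, had 23, 3, 19 and 13 (ratio 10.9, from 3.20 to 57.4). Pbx2, a homeodomain factor, had 33, 7, 30 and 18 counts (ratio 7.36, from 3.17 to 19.8). In these 3 genes the 9 month pool was the lowest. Taf12, a subunit of the general transcription factor TFIID, had 4, 3, 19 and 1 counts (ratio 10.9, from 3.20 to 57.4) and was high at 15 months alone. Mif, a cytokine gene, had 21 and 50 counts (ratio 4.09, from 2.41 to 7.17), but all of its windows had further exact matches in the genome and its count is uncertain. Zfand6, Gna13 and Golim4, with ratios between 5.58 and 5.72, and H3f3b were also among the leading genes.

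The leading genes downward were similar in this regard, with a median of 42 counts over both pools and 8 of 15 genes under 50. Gm17475, a long intergenic RNA on the opposite strand of the amino acid transporter gene Slc7a2, had 20, 42, 0 and 42 counts at 3, 9, 15 and 21 months. With 3 counts as the limit of a 0 it would be 8.15-fold lower at 15 months, and the upper limit of its ratio was 0.158. Reads of Slc7a2 cannot be told apart from it without knowledge of the strand setting. Fam124a with 21, 20, 0 and 7 counts would be 3.88-fold lower on the same limit, and the upper limit of its ratio was 0.348. Gm13826, with 359, 313, 52 and 180 counts, was lowest at 15 months (ratio 0.285, from 0.208 to 0.384), and 48.5% of its windows had further matches. Aldoc, an aldolase gene, had 32, 51, 5 and 38 counts (ratio 0.168, from 0.0524 to 0.419). Rb1cc1, needed for the start of autophagy, had 3, 35, 2 and 13 counts (ratio 0.0981, from 0.0114 to 0.382), and Med14, a Mediator subunit, had 5, 34, 2 and 9 (ratio 0.101, from 0.0118 to 0.394). Both were highest at 9 months. Scnm1, Map3k13 and Tceal8 each had 1 count at 15 months against 26 to 28 at 9 months, with ratios between 0.0613 and 0.0660 and upper limits of 0.371 to 0.402. Of the 30 leading genes, 20 had no window with a further exact match.

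**Figure D3:**
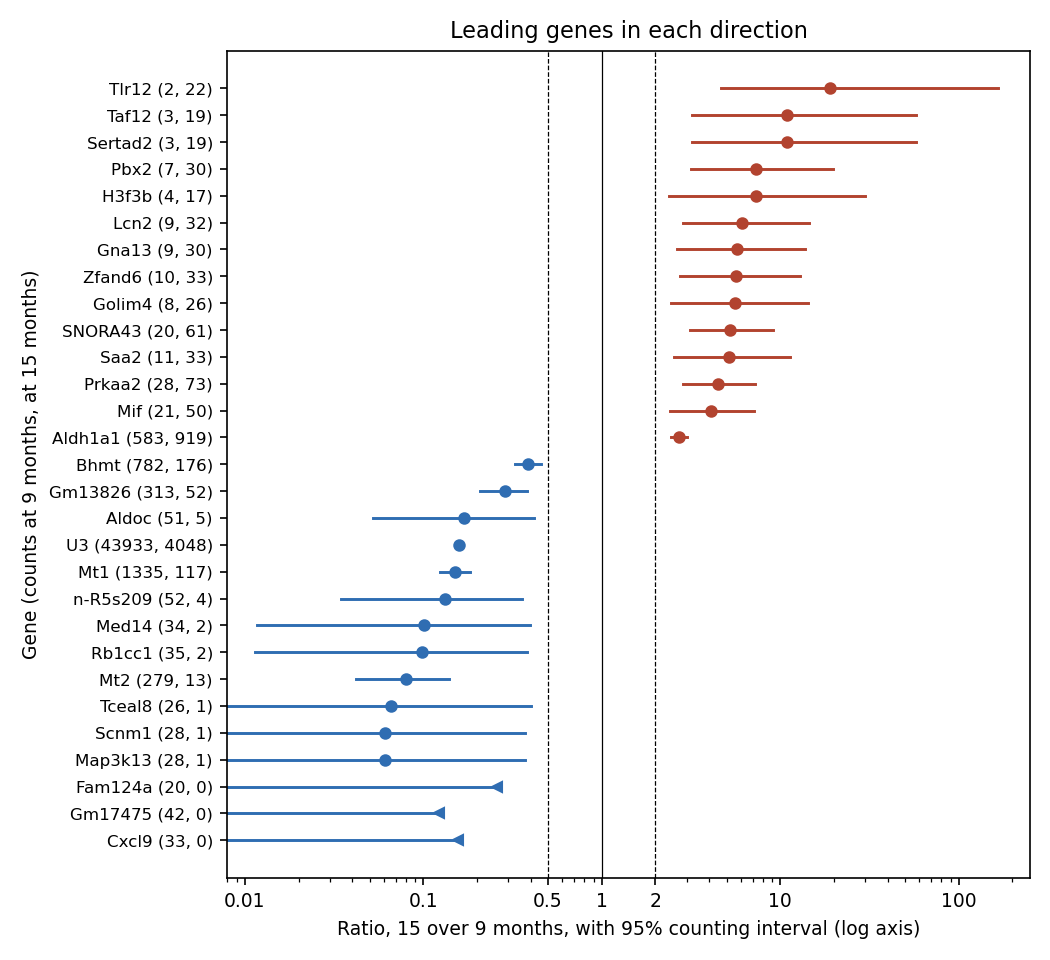
Ratio of 15 over 9 months with 95% counting interval (log axis) for 14 leading genes upward and 15 downward, chosen by the interval limit nearest to 1, with the counts of both pools in brackets. Arrowheads mark genes listed at 0 at 15 months, drawn at the ratio that 3 counts would give; lines reaching the left edge run on beyond it. The narrow intervals of U3, Mt1, Bhmt and Aldh1a1 contrast with those of genes such as Tlr12, which rest on few counts.

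Of the 16 candidate genes of the study for normalisation, H3f3b, which encodes the histone variant H3.3, was the only one called. The share called upward was thus 6.25%, against 6.55% of all genes. The study chose part of the candidates from its sequencing of 3 and 15 month-old mice. H3f3b had 9, 4, 17 and 22 counts at 3, 9, 15 and 21 months and a ratio of 7.30 (from 2.38 to 29.8). Its partner H3f3a, coding for the same protein, had 53 and 24 counts at 9 and 15 months (ratio 0.777, from 0.459 to 1.28). The median ratio of the candidates was 0.875 and that of their summed counts 0.729 (from 0.709 to 0.750). The sum mostly reflects Ttr, which had 14125 of the 16546 counts at 9 months and 5834 of the 7026 at 15 months. The intervals of Gapdh (0.744, from 0.664 to 0.834), Atp5h (0.652, from 0.515 to 0.820) and Ttr (0.709, from 0.688 to 0.731) lay below 1 on the TMM scale, and that of Sirt2 (1.56, from 1.16 to 2.10) above. Against a scale set on Atp5h, Gsk3b and Sirt2 together, all ratios were 0.08 higher on the log2 scale than with TMM. The study also named genes as affected by age, from individual young and aged mice measured by hybridisation and PCR. In RNA it reported a decrease for Slc2a2 (Glut2) and increases for Sfpq, Csnk1d and Csnk1e. By Western blot it also reported more Sfpq and Csnk1d protein in liver nuclei. Its aged mice were older than those of any pool here, and it reported no such changes in middle-aged mice. Of these 4 genes, 3 were compared between 9 and 15 months and none was called. The glucose transporter gene Slc2a2 had 486 and 239 counts (ratio 0.844, from 0.720 to 0.988). Sfpq had 33 and 9 counts (0.468, from 0.197 to 1) and Csnk1d had 18 and 15 (1.43, from 0.671 to 3.01). The limit of a call lies above the size of those changes in RNA, so that a missing call cannot decide on them.

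Of 27 nuclear receptors and hepatocyte transcription factors, 3 were called upward (11.1%) and 1 downward (3.70%), with a median of 1.20. Over all genes the shares were 6.55% upward and 5.88% downward, the background for each list of this paragraph. Foxa2, a pioneer factor of liver development, had 9 and 21 counts (ratio 4.01, from 1.76 to 9.94), Rara, the retinoic acid receptor, had 16 and 23 (ratio 2.47, from 1.25 to 4.999) and Nr5a2, a regulator of bile acid synthesis, had 22 and 26 (ratio 2.03, from 1.11 to 3.76, lost with TMM over unfiltered genes). Nr1h3, an oxysterol receptor, was downward with 73 and 21 counts (ratio 0.494, from 0.289 to 0.812, lost with library totals). Of 18 clock genes, Clock (9 and 16 counts, ratio 3.05, from 1.27 to 7.84) and Usp2 (11 and 15 counts, ratio 2.34, from 1.005 to 5.64, lost with DESeq2 size factors and with TMM over unfiltered genes) were called upward, and the abundant Nr1d1 had a ratio of 0.855 (from 0.681 to 1.07). Of 9 genes of cell cycle and p53 response, Trp53 was called downward with 19, 32, 3 and 17 counts (ratio 0.161, from 0.0315 to 0.515), as were its target Trp53inp1 (25 and 5 counts, ratio 0.343) and Ccnd1 (21 and 4 counts, ratio 0.327, lost with library totals), while the p53 target Ccng1 was upward with 10 and 16 counts (ratio 2.75). Of 7 immediate early genes only Ier2 was called, downward with 32 and 7 counts (ratio 0.376).

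Of 47 ribosomal protein genes, 2 were called upward (4.26%) and 1 downward (2.13%), with a median of 1.03 (0.962 with TMM over unfiltered genes). The background for this and the lists that follow was 6.55% upward and 5.88% downward of all genes. The respiratory chain had 5 calls upward and 4 downward among 71 nuclear-encoded genes (median 0.898), among them Ndufb11 downward with 39 and 4 counts (ratio 0.176, from 0.0457 to 0.488) and Ndufs7 upward with 57 and 78 (ratio 2.35, from 1.65 to 3.37). The 33 translation factors had 2 calls upward, Eif4a2 (ratio 2.58) and Eif5b (ratio 3.43), and 1 downward, Eif4a1 (ratio 0.332), with a median of 1.10. The 29 proteasome subunits had 1 call in each direction (Psmc3, ratio 2.19, and Psmb2, ratio 0.410). None of 31 genes of endoplasmic reticulum stress was called (median 1.14), and of 17 heat shock genes only Hspa4 was, downward with 52 and 13 counts (ratio 0.429). Of 24 clustered histone genes, 3 were called upward and 1 downward (median 0.918). Their messages end without a poly(A) tail, and Hist1h3a (57 and 69 counts, ratio 2.08) and Hist1h4h (41 and 49 counts, ratio 2.05) lost their calls with TMM over unfiltered genes.

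Secreted proteins and the remaining metabolic lists had between 1 and 3 calls each, against 6.55% upward and 5.88% downward of all genes. Of 34 plasma carriers and apolipoproteins only Pltp, the phospholipid transfer protein, was called, upward with 9 and 17 counts (ratio 3.24, from 1.37 to 8.26), and Alb had a ratio of 0.906 (from 0.893 to 0.919). Of 59 complement and coagulation genes only Cfp (properdin) was called, downward with 30 and 6 counts (ratio 0.343). Of 33 genes of glucose metabolism, Pgm2 (47 and 66 counts, ratio 2.41) and Pfkl (11 and 15 counts, ratio 2.34, lost with DESeq2 size factors and with TMM over unfiltered genes) were upward and Gckr, the glucokinase regulator, downward with 81 and 22 counts (ratio 0.466). Of 28 antioxidant genes, Gss (26 and 5 counts, ratio 0.330) and Gpx4 (53 and 15 counts, ratio 0.486, lost with library totals) were downward. Of 22 genes for iron and heme, the heme synthesis genes Cpox (47 and 9 counts, ratio 0.329) and Alad (47 and 11 counts, ratio 0.402) and the ferrireductase gene Steap3 (29 and 6 counts, ratio 0.355) were downward and none was upward.

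**Figure D4:**
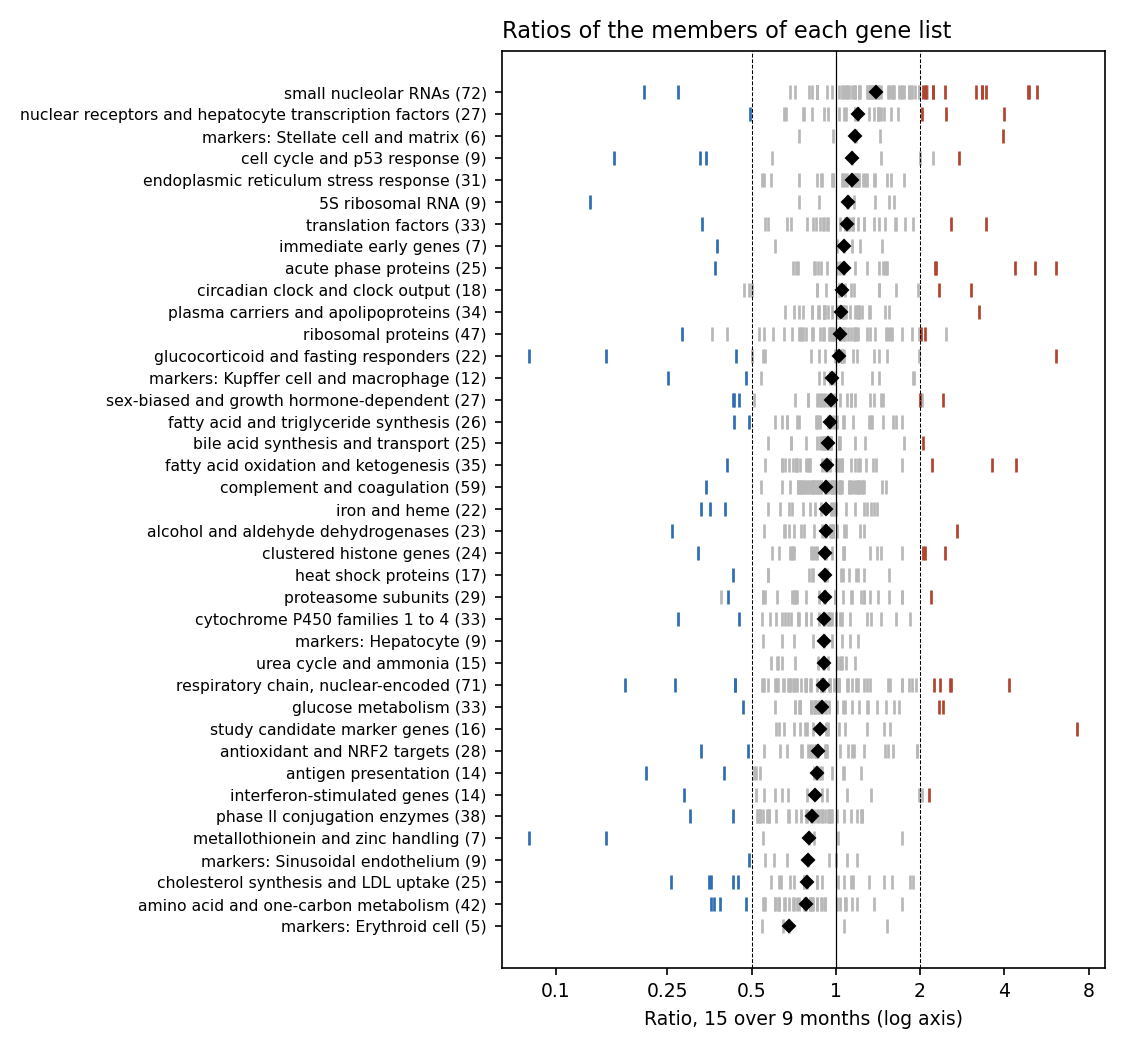
Ratios of 15 over 9 months (log axis) of the members of 39 gene lists with at least 5 genes compared, 1 tick per gene, with calls upward in red, calls downward in blue, and the median of each list as a diamond; the number of genes compared is given in brackets. The medians run from 0.680 for erythroid markers to 1.39 for small nucleolar RNAs, and most members lie between the dashed lines at 0.5 and 2.

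Of the cell type markers few were called. Over all genes 6.55% were called upward and 5.88% downward. All 9 hepatocyte markers were compared and none was called (median 0.906, summed ratio 0.871, from 0.861 to 0.881). Of 12 Kupffer cell and macrophage markers, Cd68 (41 and 6 counts, ratio 0.251, from 0.0872 to 0.595) and Vsig4 (43 and 12 counts, ratio 0.479, from 0.230 to 0.925, lost with library totals) were downward, whereas Clec4f, the marker of Kupffer cells in mice, had a ratio of 0.904 (from 0.666 to 1.22), and the summed level was 1111 CPM at 9 months and 1070 CPM at 15 months. Of the 12 macrophage markers, 7 had a ratio below 1 and 5 above. Among the latter, none of them called, were Timd4 with 31 and 34 counts (ratio 1.88, from 1.12 to 3.17) and Marco with 18 and 20 (ratio 1.91, from 0.958 to 3.83). Of 9 markers of sinusoidal endothelium only Lyve1 was called, downward with 49 and 14 counts (ratio 0.491, lost with library totals). Of 6 stellate cell and matrix genes compared, Col1a2, a collagen I chain, was upward with 25, 20, 46 and 31 counts (ratio 3.95, from 2.29 to 7.05), and the summed level was 1081 CPM and 1098 CPM. Of the 6, 4 had a ratio above 1 and 2 below, among these the abundant Dcn with 377 and 162 counts (ratio 0.738, from 0.610 to 0.889). The 5 erythroid markers had a median of 0.680 and a summed ratio of 0.681 (from 0.629 to 0.736), led by Hbb-b1 with 1511 and 598 counts. Of the 5, 3 had a ratio below 1 and 2 above. The latter were Hba-a1 with 27 and 24 counts (ratio 1.53, from 0.843 to 2.75) and Hba-a2 with 32 and 20 (ratio 1.07, from 0.582 to 1.93). The sum of 8 B and plasma cell markers found in the files was 27 counts at 9 months and 25 at 15 months. The only one compared was Ighm, the heavy chain of immunoglobulin M, with 2, 8, 19 and 39 counts at 3, 9, 15 and 21 months (ratio 4.08, from 1.70 to 10.8). The count of Ighm was lowest at 3 months and highest at 21 months. Igkc, the light chain gene with the next most counts of the list, stayed below the minimum with 0, 13, 1 and 6 counts. The only cholangiocyte marker compared was Spp1 with 10 and 16 counts (ratio 2.75, from 1.17 to 6.77), which is not restricted to these cells, while Epcam and Krt7 had 0 counts in both pools. Markers of exocrine pancreas summed to 14 and 9 counts, and those of adipocytes to 0 in both pools. The part of the cell types in the differences above was not tested.

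The pools of 3 and 21 months took no part in the choice of the called genes and share no library with the comparison. Over the genes called upward between 9 and 15 months, the median ratio of 21 over 3 months was 1.04 (320 genes with counts), and over those called downward it was 0.999 (288 genes), against 1.001 over 4899 genes. Of the genes called upward, 52.8% had a 21 over 3 month ratio above 1, and of those called downward 49.3%, against 50.1% of all. Under the stricter call the medians were 1.12 for 32 genes upward and 1.07 for 20 genes downward. Across genes, which are not independent replicates, Spearman's rho between the 15 over 9 and the 21 over 3 month ratio was 0.0276. Single genes varied. Mt2 had a 21 over 3 month ratio of 12.3 (from 4.92 to 39.6), SNORA43 of 5.13 and Ighm of 24.99, whereas Bhmt had 1.01 (from 0.904 to 1.13) and Aldh1a1 0.698 (from 0.642 to 0.758).

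**Figure D5:**
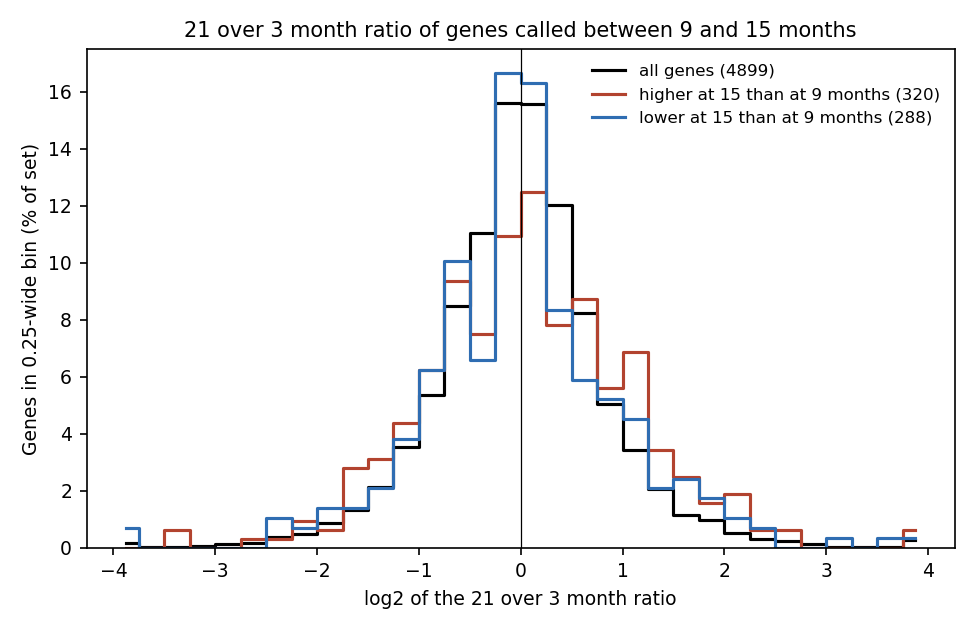
Distribution of the log2 ratio of 21 over 3 months in bins of 0.25, in percent of each set, for all genes compared (black), genes called upward (red) and genes called downward (blue) between 9 and 15 months; values beyond 4 and counts of 0 are drawn in the outermost bins. The 3 curves are centred near 0, with medians of 1.001, 1.04 and 0.999 on the linear scale.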

How the data were processed

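The deposited files hold raw counts, whole reads per gene symbol, which the authors made from SOLiD reads of capped 5'-ends, sequenced on one lane and mapped in the CLC workbench to the mouse genome mm9. The submitters' processing notes name HTSeq and mm9. The strand setting and annotation of the counting are not given in the sources used here. Records assigned to no gene (91.6% to 93.3% of each library) were left out. Genes with at least 20 counts over both pools were scaled by TMM (edgeR 4.0.16 in R 4.3.3), and levels of all 4 pools by TMM over 4 libraries. Ratios carry exact Clopper-Pearson 95% intervals (scipy 1.17.1). With 1 pool per age there are no residual degrees of freedom, and neither edgeR nor DESeq2 (1.42.0, size factors only) could test a difference. The call rule was also run on simulated counts that hold counting error only, which cannot show how it behaves under variation between pools.

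Positions and sequences come from NCBIM37 with GENCODE M1, in which 33923 of 33924 symbols were found. Exact matches of 35-base windows were searched on both strands, and motifs on the strands stated.

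The genes named were the 15 leading genes in each direction, up to 4 called and the 2 most abundant members of each of 49 gene lists, the candidates of the study and cell type markers; a few others are marked, and 1 leading gene upward is not reported here. The comparison, members and lists were chosen with earlier results of these data known. The alternatives were other scale factors, count minimums, intervals and folds.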

Additional observations from a re-analysis of the deposited data

How the results depend on the processing

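No paired analysis was possible because each age has 1 pool, and no library could be left out for the same reason. With the same genes and limits, calls numbered 399 upward and 231 downward with library totals and likewise with a scale from 3 candidate genes, 314 and 298 with DESeq2 size factors, 322 and 288 with the geometric mean, 329 and 285 with TMM over 4 pools, and 270 and 374 with TMM over unfiltered genes, an alternative chosen after seeing the data. The share of upward calls was thus 52.7% with the reported scale, 63.3% with library totals and 41.9% with TMM over unfiltered genes. The latter lowered all ratios by 0.10 on the log2 scale (a shift of -0.10), and library totals raised them by 0.09. Of the calls reported, 100% upward and 80.2% downward were kept with library totals, and 84.1% and 100% with TMM over unfiltered genes. Both values of 100% follow from the direction of the shift alone. Every scale moved all ratios by about 0.10 or less on the log2 scale, so that a gene past 2-fold could not change direction. Of the called genes that were named by the stated rule, 16 lost their call under at least 1 scale. Called genes named outside that rule are not in this count, among them Mvk, Cish and Slc22a18, which lie near a limit of the call. Without a count minimum there were 768 calls upward and 475 downward among 13480 genes, and with at least 50 counts 77 and 93 among 2273. With at least 10 counts in each pool 219 were upward and 84 downward, a requirement that removes genes that are low at 15 months. An interval with an error rate of 0.001 left 117 and 65, whole intervals past 2-fold 32 and 20, a limit of 1.5-fold gave 479 and 423, and protein-coding genes alone 300 and 277. Depth set what could be seen: with 20 to 29 counts over both pools few differences under 2-fold exceed the counting interval.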

Other observations

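The ratio of 15 over 9 months had a weak relation to gene properties, given here as values. Across 4705 genes, which are not independent replicates, Spearman's rho was 0.0961 with the median transcript length and 0.0980 with the GC content of the first bases of the transcripts. The median ratio was 0.937 in the fifth of genes with the shortest transcripts and 1.07 in that with the longest, and it was 0.925 in the fifth with the lowest GC content and 1.08 in that with the highest.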
